A study of Mus musculus with 16 samples.

Results

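The genes described here are 36 genes of glutathione use, metal binding and the NRF2 antioxidant defence, followed in mouse liver after oxaliplatin. They were taken by symbol from a working list, not from a published pathway, and all 36 are among the 40840 genes of the count table. The list holds 2 metallothioneins, 4 genes of glutathione synthesis and cystine uptake, 2 of recycling and breakdown, 2 peroxidases, 17 glutathione S-transferases (GSTs), NRF2 and its inhibitor, and 7 enzymes that NRF2 is known to control. Enough reads for a test were found for 34 of the 36, among 14484 genes tested. Slc7a11, the cystine transporter, had 0 to 5 reads in a library, and Ggt1, which breaks glutathione down outside the cell, had 0 to 6, so they were not tested.

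All animals were male C57BL/6J mice, 12 to 16 weeks old and kept in constant darkness from 3 days before the drug, and every group had been given 12 mg/kg of the DNA-damaging platinum compound oxaliplatin into the peritoneum on 3 days in a row, though the study's description also speaks of a single dose. The 4 groups of 4 liver libraries were Cry1-/- Cry2-/- mice (CryDKO) dosed at circadian time 16 (CT16), CryDKO mice dosed at CT8, wild-type (WT) mice dosed at CT16 and WT mice dosed at CT8. CryDKO mice, bred from parents heterozygous for both genes, lack both cryptochromes, the repressors of the circadian clock, in every tissue. No mice without the drug were analysed here, and how long after the last dose the liver was collected is not stated in the sources used here.

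Glutathione is the main small thiol of the liver, and GSTs join it to reactive compounds, among them platinum drugs, before export. Metallothioneins bind zinc, copper and platinum through their many cysteines, and are switched on by the metal sensor MTF1 at metal response elements. NRF2, the product of Nfe2l2, is held in the cytosol and marked for breakdown by KEAP1, and on oxidative or electrophilic stress it enters the nucleus and binds antioxidant response elements of genes for glutathione synthesis, GSTs and quinone or thioredoxin enzymes. Its activity is set largely by the stability of the protein, which transcript counts do not measure.

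Promoter sequences are shown for Nfe2l2 and Mgst1, which were lower in all 8 CryDKO libraries than in all 8 WT libraries. They are also shown for Mt1 and Mt2, whose ratio of reads stayed between 1.19 and 2.61 in all libraries. No correlation between Mt1 and Mt2 was computed. Gstz1 was also lower in all 8 CryDKO libraries and is not shown. The sequences come from RefSeq on the mouse build GRCm38.p6 and run from 250 bases before the start of transcription to 30 bases after it, on the strand of the gene. In Nfe2l2 and Mgst1 the capitals mark the antioxidant response element core, TGACNNNGC on either strand, of which each window held 1. Mgst1 had 2 windows, and the one with more matches was taken for display. Its other window held 0 matches, and the windows of Gstz1 also held 0. In Mt1 and Mt2 they mark the metal response element core, TGCACNC or TGCGCNC on either strand, of which the Mt1 window held 3 and the Mt2 window 4.
Nfe2l2 (chr2:75704634-75704913, minus strand): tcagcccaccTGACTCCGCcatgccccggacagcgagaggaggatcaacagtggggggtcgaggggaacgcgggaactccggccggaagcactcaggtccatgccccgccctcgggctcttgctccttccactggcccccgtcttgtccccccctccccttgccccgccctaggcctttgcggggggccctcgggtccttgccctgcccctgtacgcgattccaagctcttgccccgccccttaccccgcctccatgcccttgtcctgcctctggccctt
Mgst1 (chr6:138140277-138140556, plus strand): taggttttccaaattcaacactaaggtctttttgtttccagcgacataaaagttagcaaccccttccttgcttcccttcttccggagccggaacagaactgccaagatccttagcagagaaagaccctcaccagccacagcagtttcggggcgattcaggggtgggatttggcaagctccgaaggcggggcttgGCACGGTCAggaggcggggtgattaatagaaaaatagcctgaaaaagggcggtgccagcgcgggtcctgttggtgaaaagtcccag
Mt1 (chr8:94178839-94179118, plus strand): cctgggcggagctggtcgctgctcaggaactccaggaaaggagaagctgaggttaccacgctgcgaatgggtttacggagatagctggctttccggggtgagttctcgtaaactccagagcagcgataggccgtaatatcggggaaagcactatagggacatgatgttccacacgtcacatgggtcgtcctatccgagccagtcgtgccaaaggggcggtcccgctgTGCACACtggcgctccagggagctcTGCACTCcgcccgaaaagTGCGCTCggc
Mt2 (chr8:94172368-94172647, plus strand): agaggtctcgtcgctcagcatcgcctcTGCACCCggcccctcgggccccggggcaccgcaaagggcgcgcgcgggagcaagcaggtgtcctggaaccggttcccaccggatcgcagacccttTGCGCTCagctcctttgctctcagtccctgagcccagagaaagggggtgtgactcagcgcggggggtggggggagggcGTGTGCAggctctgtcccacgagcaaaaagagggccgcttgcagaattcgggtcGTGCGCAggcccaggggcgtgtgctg

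Of the 36 genes, 32 had a window of this kind, from 250 bases before to 50 after the start, and several had more than 1, which gave 44 windows. The antioxidant response element core was in 10 of the 44 windows (22.7%), against 12.4% of all 32851 RefSeq promoter windows of that length. It was found in 8 of the 32 genes, Gclm, Ggt1, Gsta3, Mgst1, Mt2, Nfe2l2, Srxn1 and Txnrd1. Ggt1, which had too few reads for a test, supplied more than 1 of the 10 windows. These shares count windows and not genes. The metal response element core was in 13 of the 44 windows (29.5%), against 25.7% of all windows, and an E-box of the clock activators, CACGTG, was in 1 of 44 (2.27%), against 7.15% of all windows. Matches of the first 2 motifs overlapped in Gclm. A match is a run of letters and not a measured binding site.

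Library totals ran from 18083916 to 29934138 counted reads. Nothing in the labels says that the 4 libraries of a group came from 4 mice, so p-values measure the spread between these libraries, which may be in part technical. As a check of the labels, Cry2 had TMM-scaled counts-per-million (CPM) values of 23.1 to 33.3 in CryDKO libraries, against 39.9 to 58.9 CPM in WT libraries, and was lower in each of the 8. Cry1 was higher in each of them, with 20.5 to 29.0 CPM, against 5.14 to 15.9 CPM in WT. The Cry1 counts therefore go against a loss of the transcript, the deleted part of the gene was not examined here, and CryDKO stands for libraries so labelled in every direction given. Summed hepatocyte markers were 113183 to 180572 CPM at CT16 and 115591 to 161061 CPM at CT8 in CryDKO. In WT they were 64647 to 104333 CPM at CT16 and 60516 to 75184 CPM at CT8. Of these 7 markers, 5 were called higher at CT8, 5 averaged over both times and 2 at CT16 (Alb and Hnf4a). In each comparison 0 were called lower. Alb made up much of the sum, at 72226 of 115591 CPM in CryDKO_CT8 library 9. Summed macrophage markers were 79.4 to 145 and 51.8 to 126 CPM in CryDKO at CT16 and CT8, against 20.5 to 76.6 and 46.7 to 63.5 CPM in WT, and 3 of the 7 (C1qa, Csf1r and Marco) were called higher in CryDKO averaged over both times. Summed stellate cell markers were 48.3 to 148 and 126 to 253 CPM in CryDKO, against 71.0 to 158 and 105 to 145 CPM in WT. Of these 7 markers, 4 were called higher at CT8, 4 averaged over both times and 1 at CT16. Neutrophil markers summed to at most 10.3 CPM in any library, with Mpo at 0, and T, NK and B cell markers to at most 2.20 CPM. Summed cholangiocyte markers were 60.9 to 167 and 63.6 to 165 CPM in CryDKO, against 60.5 to 91.3 and 39.5 to 109 CPM in WT, and endothelial ones 50.1 to 70.0 and 44.5 to 87.6 CPM in CryDKO, against 26.9 to 71.1 and 53.1 to 74.1 CPM in WT. Averaged over both times, the cholangiocyte markers Krt19 and Krt7 were called higher and Sox9 lower, and the endothelial marker Stab2 was called higher. The part of these markers in the results was not tested, and in whole liver, fewer cells of a type and less RNA per cell cannot be told apart.

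Between the genotypes, the transcript of NRF2 and the enzymes Aox1 and Gstz1 were lower in CryDKO livers at both dosing times, and Gstt1 was higher at both. At CT8 the metallothioneins, glutathione synthetase, glutathione reductase, Nqo1, Keap1 and Gsta2 were higher and Mgst1 was lower. At CT16 Gsta4 was higher and the mu class enzymes Gstm2 and Gstm4 were lower. Averaged over both times, the metallothioneins, glutathione synthetase, Keap1, Gsta2 and Gsta4 were also called higher, and Mgst1, Gstm2 and Gstm4 lower. The interaction of genotype and time was called for 0 of the 34 tested genes, so an effect limited to a single dosing time was not shown. Each change was tested with the quasi-likelihood test of edgeR, adjusted over all 14484 genes, with a threshold of 0.05.

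At CT16, 7 of the 34 tested genes were called, 2 higher (background 1303 of all genes tested) and 5 lower (background 9.15%), which is 20.6% of the 34, where 18.2% of all genes were called. At CT8, 15 were called, 11 higher (background 18.7%) and 4 lower (background 20.3%), which is 44.1% of the 34, where 39.0% of all genes were called. Averaged over both times, 14 were called, 8 higher (background 22.9%) and 6 lower (background 24.2%), which is 41.2% of the 34, where 47.1% of all genes were called. The share of these genes called thus lay near that of all genes in each comparison, and the counts say nothing particular to them. The median log2 change of the 34 genes was -0.06 at CT16 and 0.29 at CT8, against -0.01 and -0.02 over all genes.

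Scaling by library size alone, which moved the median change of all genes to -0.16 at CT16 and -0.36 at CT8, gave 1 higher and 7 lower calls at CT16, 6 and 5 at CT8, and 5 and 8 averaged over both times. It ended the calls of Mt2, Gsr, Gstt1, Nqo1 and Cbr3 at CT8, of Gsta4 at CT16 and of Mt1, Mt2 and Gsta3 averaged over both times. Under that scaling 15.8% of the calls over all genes at CT8 were higher, against 47.9% with the main scaling. At CT16 the count fell to 4 without CryDKO_CT16 library 12, WT_CT8 library 4, WT_CT16 library 7 or WT_CT16 library 8, and the calls of Gstm4, Gstm2, Gstt1 and Nfe2l2 held in each. Over all genes the count at CT16 fell in these runs too, from 2629 to 1939, 2278, 2110 and 1891 in that order. By DESeq2 the count at CT16 was 11 of the 34, and 3169 over all genes.

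**Figure D1:**
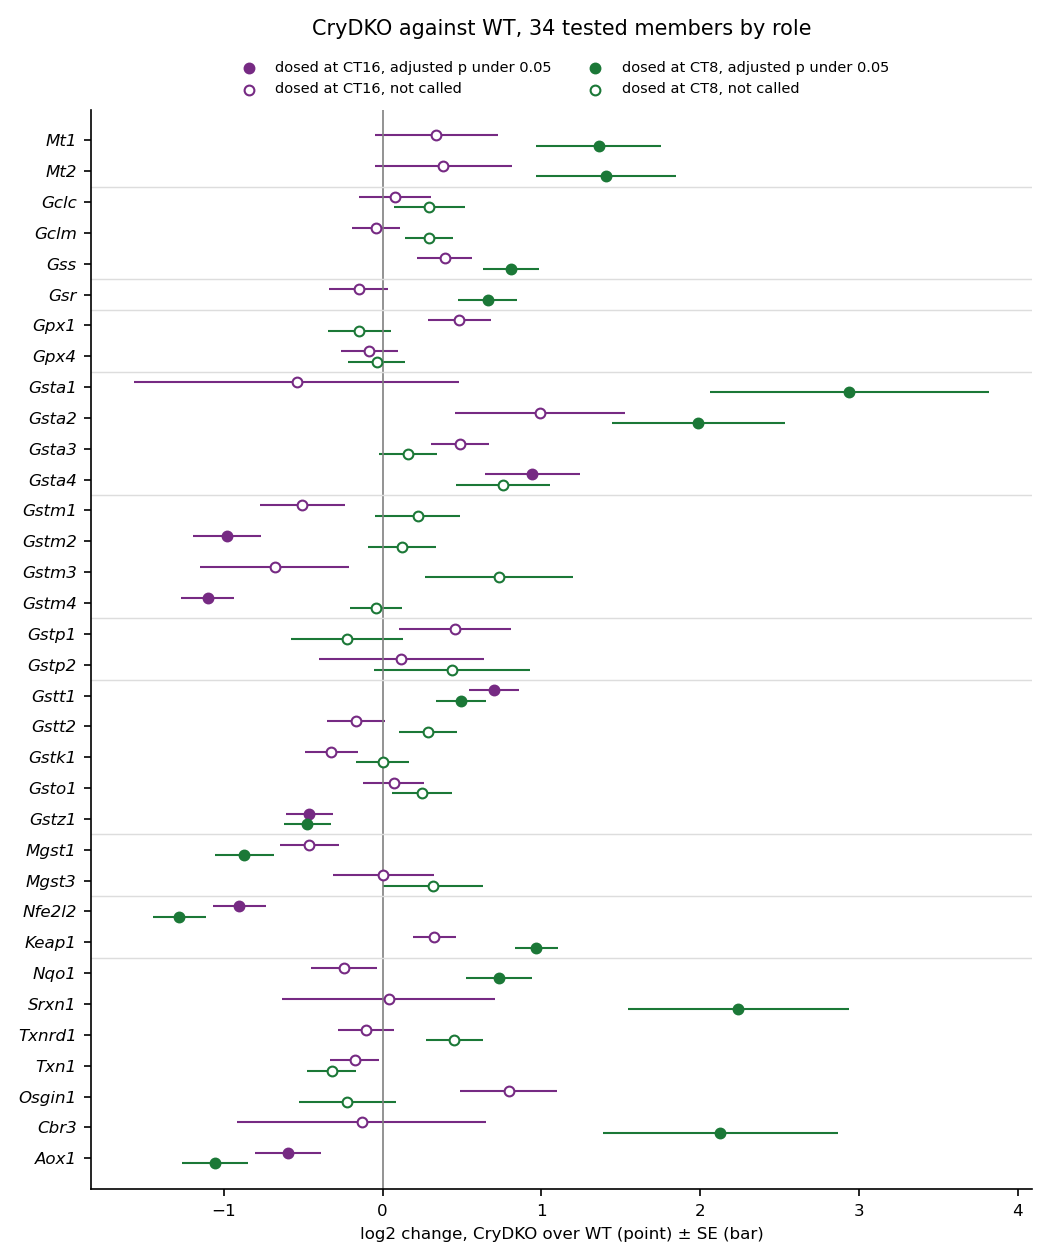
Log2 change of CryDKO over WT (point) with its standard error (bar) for the 34 tested genes, ordered by role, for mice dosed at CT16 and at CT8. Filled points passed an adjusted p of 0.05, 7 at CT16 and 15 at CT8. Nfe2l2, Gstz1 and Aox1 were called lower at both times, and Gstt1 was called higher at both.

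Nfe2l2 transcript, which encodes NRF2, was lower in CryDKO at both dosing times, and Keap1 transcript, which encodes its inhibitor, was higher at CT8. Nfe2l2 was at 65.3, 47.0, 52.2 and 37.3 CPM in the 4 CryDKO libraries at CT16, against 90.8, 78.7, 105 and 103 CPM in WT. At CT8 it was at 55.8, 73.8, 46.3 and 55.7 CPM in CryDKO, against 131, 141, 143 and 148 CPM in WT. All 8 CryDKO libraries lay below all 8 WT libraries, and the 4 WT libraries at CT8 were the 4 highest of the 16. The log2 change was -0.90 ± 0.17 at CT16 (adjusted p = 0.00128) and -1.28 ± 0.17 at CT8 (adjusted p = 3.74e-05). Averaged over both times it was -1.09 ± 0.12 (adjusted p = 1.51e-06), and the call held in all 24 alternative settings at CT8 and at CT16.

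Keap1 was at 80.2, 75.2, 83.4 and 80.1 CPM in CryDKO at CT16, against 74.0, 63.5, 67.9 and 49.2 CPM in WT. At CT8 it was at 105, 82.7, 84.8 and 78.8 CPM in CryDKO, against 49.2, 44.2, 42.7 and 43.8 CPM in WT. All 8 CryDKO libraries were above all 8 WT libraries, but at CT16 the gap was narrow and the change of 0.33 ± 0.13 was not called (adjusted p = 0.0957). At CT8 Keap1 rose by 0.97 ± 0.14 on the log2 scale (adjusted p = 5.77e-05). The ratio of Keap1 reads to Nfe2l2 reads within a library, not corrected for length, was 1.23 to 2.15 at CT16 and 1.12 to 1.89 at CT8 in CryDKO, against 0.479 to 0.815 at CT16 and 0.296 to 0.374 at CT8 in WT.

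Of all 34 tested genes, 2 had all 8 CryDKO libraries above all 8 WT libraries, Keap1 and Gstt1 (background 3.58% of all genes), and 3 had them all below, Nfe2l2, Mgst1 and Gstz1 (background 4.30%).

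**Figure D2:**
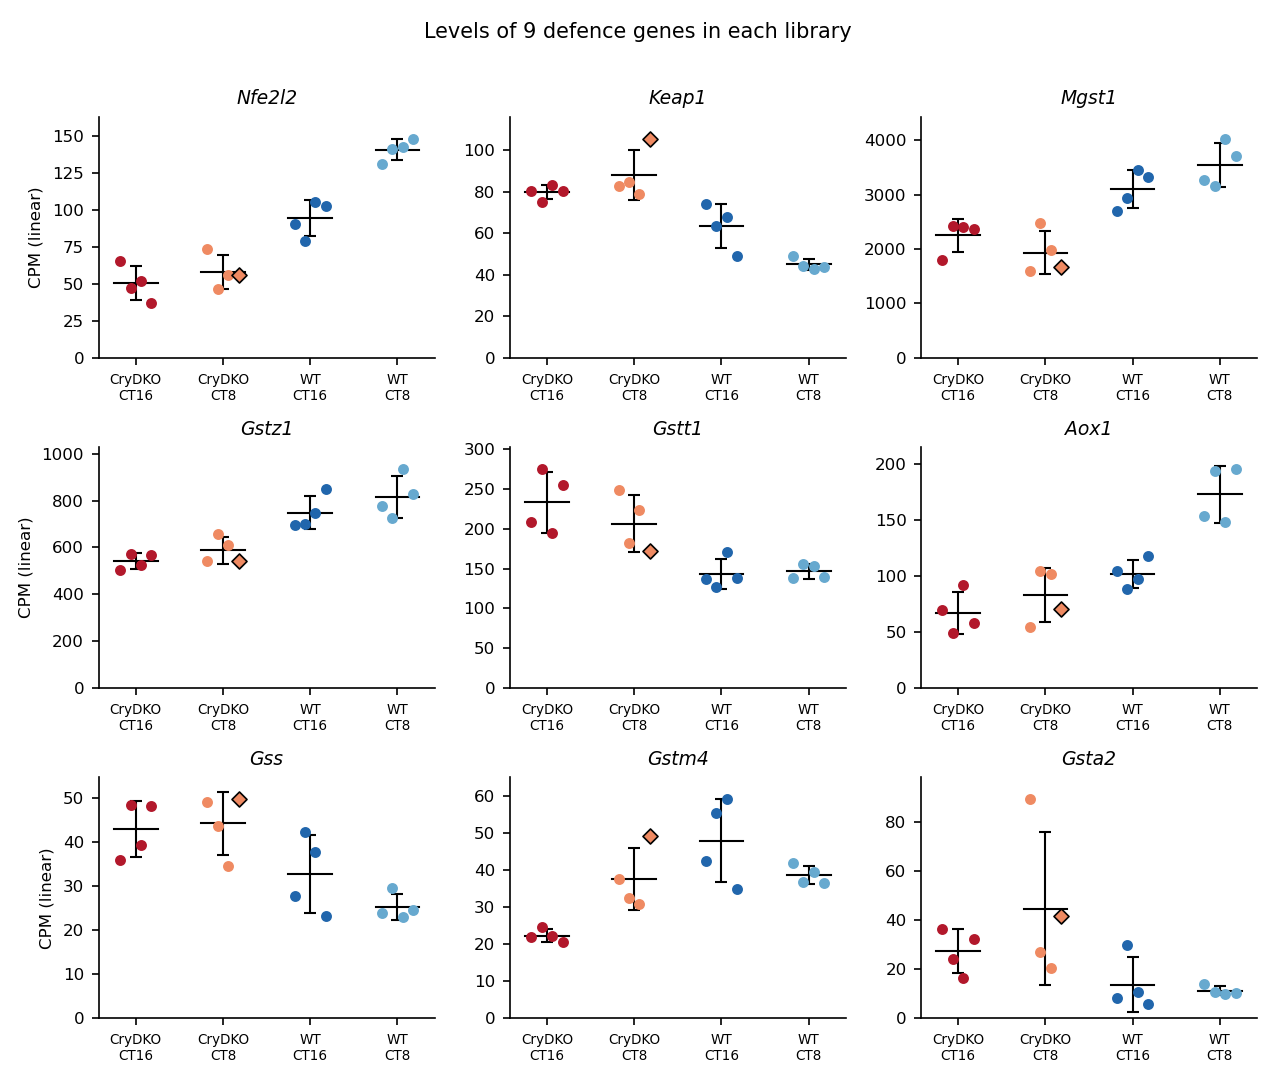
CPM, on a linear axis from 0, of 9 genes in each of the 16 libraries, by group (CryDKO at CT16, CryDKO at CT8, WT at CT16, WT at CT8), with the mean and SD in black. The diamond is CryDKO_CT8 library 9. Nfe2l2, Mgst1 and Gstz1 lie lower in all 8 CryDKO libraries and Keap1 and Gstt1 higher.

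The 7 enzymes listed as NRF2 targets did not move together by genotype. Aox1, aldehyde oxidase, fell at both times. It was at 70.0, 49.1, 92.3 and 58.1 CPM in CryDKO at CT16, against 104, 88.3, 97.1 and 118 CPM in WT, where the highest CryDKO value exceeded the lowest WT value. At CT8 it was at 70.9, 54.6, 105 and 102 CPM in CryDKO, against 154, 194, 148 and 196 CPM in WT, with no overlap. The log2 change was -0.60 ± 0.21 at CT16 (adjusted p = 0.0493) and -1.06 ± 0.21 at CT8 (adjusted p = 7.60e-04). The call at CT16 was at the threshold and was lost with 11 of the 16 libraries left out in turn, at adjusted p of 0.0501 without WT_CT16 library 6 to 0.149 without CryDKO_CT16 library 12.

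Srxn1, sulfiredoxin, which repairs overoxidised peroxiredoxins, was called higher at CT8 with a size that turned on 1 library. It was at 389.9, 35.6, 34.9 and 39.9 CPM in CryDKO at CT8, against 28.6, 23.9, 26.5 and 27.0 CPM in WT. CryDKO_CT8 library 9, the first of those values, was the highest of all 16, and the others spanned 23.9 to 42.4 CPM. The log2 change was 2.24 ± 0.70 (adjusted p = 0.0230) with library 9 and 0.51 ± 0.15 (adjusted p = 0.0166) without it. The call was lost without WT_CT8 library 2 (adjusted p = 0.0588) and without WT_CT8 library 4 (adjusted p = 0.0520), and DESeq2 gave the gene no adjusted p.

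Cbr3, a carbonyl reductase, showed the same library: it was at 8.54, 0.943, 0.996 and 0.397 CPM in CryDKO at CT8, against 0.551, 0.248, 0.587 and 1.13 CPM in WT. These are few reads, 196 in library 9. The groups overlapped, and the change of 2.13 ± 0.74 (adjusted p = 0.0316) was 0.35 ± 0.51 (adjusted p = 0.624) without library 9. It was also lost without WT_CT8 library 1, 2 or 3, at adjusted p of 0.0678, 0.0883 and 0.0646.

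Nqo1, the quinone reductase often read as a sign of NRF2 activity, was at 24.4, 14.6, 14.1 and 15.7 CPM in CryDKO at CT8, against 12.2, 10.1, 7.64 and 11.6 CPM in WT. All 4 CryDKO libraries lay above all 4 WT libraries. It rose by 0.73 ± 0.21 on the log2 scale (adjusted p = 0.00978), and without library 9 by 0.55 ± 0.20 (adjusted p = 0.0391). At CT16 it was at 16.0, 13.1, 8.51 and 8.66 CPM in CryDKO, against 13.1, 13.99, 13.8 and 13.98 CPM in WT, a change of -0.25 ± 0.21 that was not called (adjusted p = 0.435).

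Txnrd1, cytosolic thioredoxin reductase, was just outside the threshold at CT8, at 0.45 ± 0.18 (adjusted p = 0.0507), with 234, 131, 147 and 125 CPM in CryDKO, against 127, 123, 107 and 108 CPM in WT. Without library 9 the change was 0.24 ± 0.15 (adjusted p = 0.240). Txn1, thioredoxin, spanned 161 to 246 CPM in CryDKO and 172 to 245 CPM in WT, and Osgin1, a growth inhibitor induced by oxidative stress, 118 to 306 CPM in CryDKO and 85.3 to 232 CPM in WT. Neither was called in any comparison.

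CryDKO_CT8 library 9 was the highest of the 16 libraries for 10 of the 34 tested genes (29.4%), against 11.2% of all genes tested. It had at least 2 times the highest value of the other 15 libraries for 4 of the 34, Srxn1, Cbr3, Gsta1 and Gstp2, against 77 of all 14484 genes. Among 9257 genes with at least 5 CPM in that library, ranked by their level there over the highest of the other 15, Srxn1 was number 5, at 9.19 times, and Cbr3 number 8, at 7.59 times. Genes outside the 36 ranked above them, with the stress-induced transcription factor Atf3 at 23.3 times, the liver hormone Fgf21 at 22.7 times, the serine synthesis enzyme Psat1 at 16.7 times and Cntnap1 at 12.2 times. Of the 100 other tested genes of these pathways, 2 (Sqstm1 and Maff) had at least 2 times the highest of the other 15, and the median of the 100 was -5.87e-04 on the log2 scale relative to the group's other 3 libraries. Sqstm1, the autophagy receptor p62 that competes for KEAP1, was at 1378 CPM there, against 261 to 634 CPM in the other 15. Hmox1, heme oxygenase, was at 56.5 CPM, against 6.65 to 32.3 CPM, and Maff, a small MAF partner of NRF2, at 29.0 CPM, against 3.90 to 12.2 CPM. Other NRF2 targets lay below the median of the other 3 CryDKO_CT8 libraries, among them Adh7 at 0.575 times that median, Nqo2 at 0.725 times and Tkt at 0.805 times, and the genes outside the 36 in these sentences were chosen after their values were seen. Nfe2l2 itself was at 55.8 CPM there, within the range of its group. The macrophage, stellate cell and neutrophil marker sums of library 9 were 126, 253 and 10.3 CPM, each the highest of its group. Its hepatocyte and cholangiocyte sums were 115591 and 63.6 CPM, each the lowest of its group. The part of those cells was not tested.

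**Figure D3:**
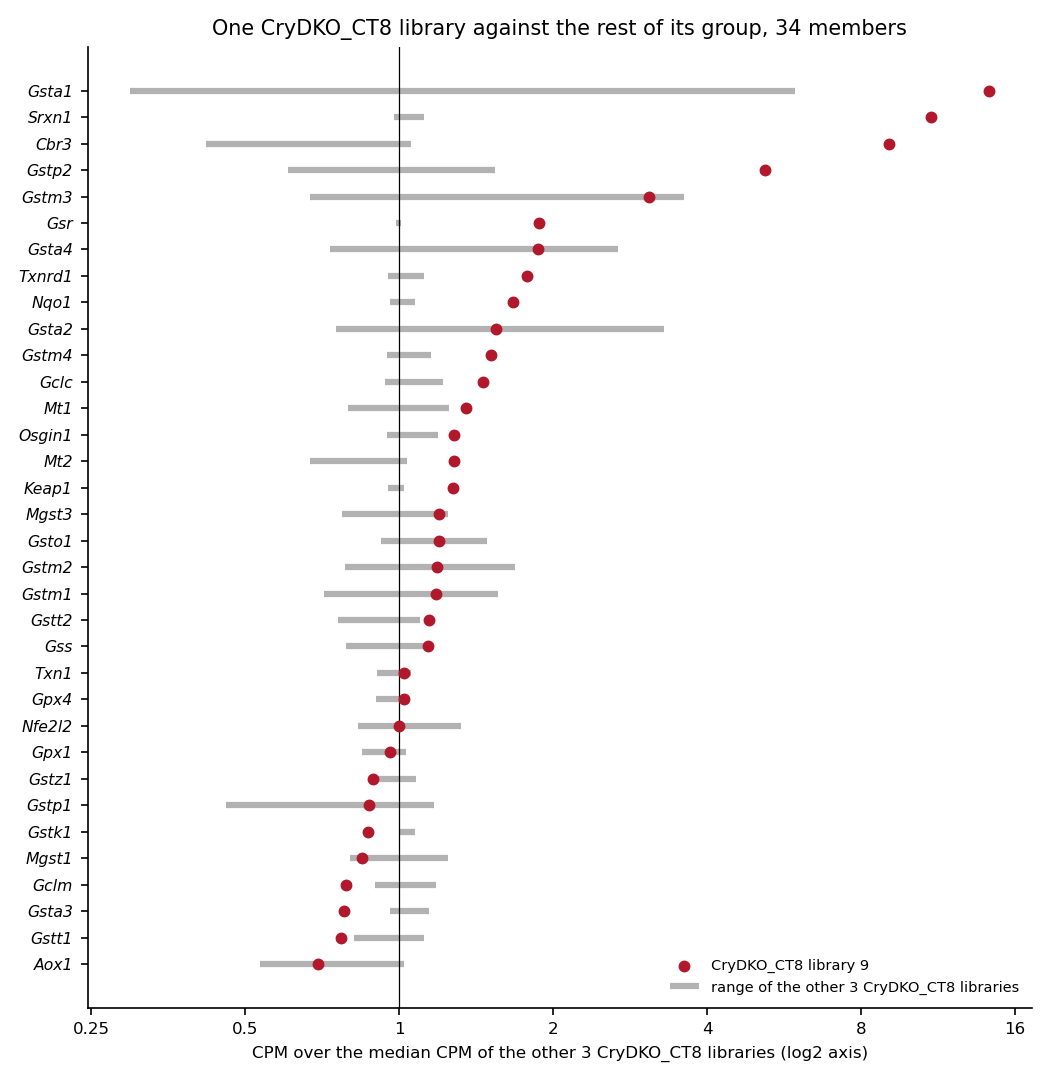
CPM in CryDKO_CT8 library 9 (point) over the median of the other 3 CryDKO_CT8 libraries, with the range of those 3 as a grey bar, on a log2 axis, for the 34 tested genes. Srxn1 and Cbr3 lie far beyond the range of the other 3 libraries. Gsta1 and Gstp2 lie beyond it too, but for Gsta1 that range is wide, 0.248 to 4.94 CPM, against 11.8 CPM in library 9. Further genes, among them Gsr and Txnrd1, also lie above their range, while Nfe2l2 lies at 1.

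The call count at CT8 was 11 (8 higher and 3 lower) without library 9, against 15 with it. Over all genes the count fell as well, to 4768 of 14854 genes tested, against 5649 of 14484 with library 9. Whether the fall was larger among these genes than among all genes was not tested. Among the 34, the calls lost were those of Gsta1, Cbr3, Mt2 and Gstz1. Without library 9 the log2 change was 1.30 ± 0.47 (adjusted p = 0.0505) for Mt2, against 1.41 with it, and -0.40 ± 0.17 (adjusted p = 0.0701) for Gstz1, against -0.47 with it, by edgeR.

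Metallothionein transcripts were higher in CryDKO at CT8. Mt1 was at 1306, 767, 1212 and 966 CPM in CryDKO at CT8, against 158, 533, 553 and 411 CPM in WT. Mt2 was at 951, 498, 743 and 769.7 CPM in CryDKO, against 104, 447, 352 and 215 CPM in WT. For both genes, every CryDKO library at CT8 exceeded every WT library at CT8. Mt1 rose by 1.36 ± 0.39 (adjusted p = 0.0129) and Mt2 by 1.41 ± 0.44 (adjusted p = 0.0204) on the log2 scale. The Mt1 call at CT8 held in all 24 settings, while that of Mt2 was lost without library 9 (adjusted p = 0.0505) and without WT_CT8 library 4 (adjusted p = 0.0512). The Mt2 call was also lost with scaling by library size alone.

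At CT16 neither was called. Mt1 was at 824, 1847, 861 and 1665 CPM in CryDKO, against 865, 1785, 776 and 683 CPM in WT, and the groups overlapped, at 0.34 ± 0.39 (adjusted p = 0.576). Mt2 was at 623, 1079, 465 and 723 CPM in CryDKO, against 547, 997, 297 and 375 CPM in WT, at 0.38 ± 0.43 (adjusted p = 0.571). In CryDKO at this time both genes were highest in libraries 12 and 14. The difference between the genotype effects at CT16 and at CT8 was -1.02 ± 0.55 for Mt1 (adjusted p = 0.427) and -1.02 ± 0.61 for Mt2 (adjusted p = 0.479), so an effect at CT8 alone was not shown. The ratio of Mt1 to Mt2 stayed between 1.19 and 2.61 in all 16 libraries, while each gene spanned a wider range, 158 to 1847 CPM for Mt1 and 104 to 1079 CPM for Mt2.

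**Figure D4:**
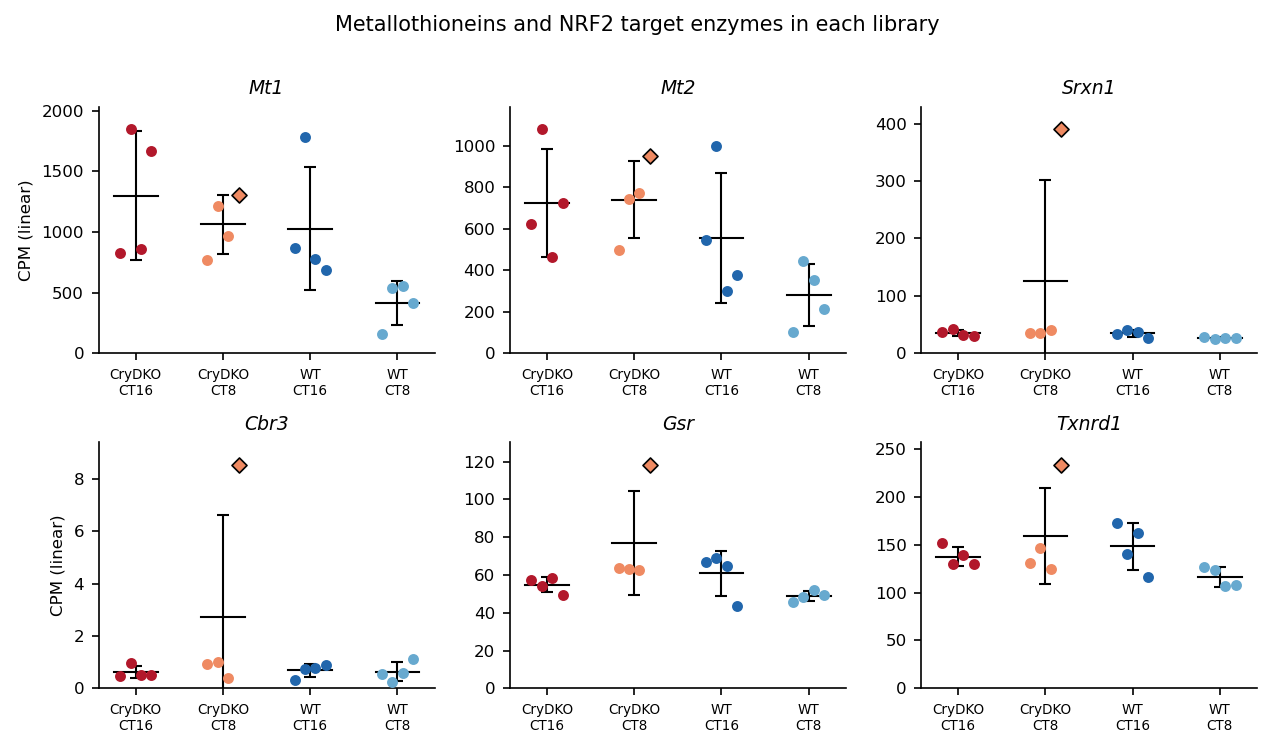
CPM, on a linear axis from 0, of Mt1, Mt2, Srxn1, Cbr3, Gsr and Txnrd1 in each library, by group, with the mean and SD in black (SD bars are cut at 0). The diamond is CryDKO_CT8 library 9, which is the highest library for Srxn1, Cbr3, Gsr and Txnrd1, while Mt1 and Mt2 are spread over the whole group.

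Among the genes that make glutathione, the last step stood out. Gss, glutathione synthetase, was at 35.9, 48.4, 39.3 and 48.0 CPM in CryDKO at CT16, against 27.8, 42.3, 37.7 and 23.2 CPM in WT, and at 49.6, 49.1, 43.6 and 34.4 CPM in CryDKO at CT8, against 23.8, 29.5, 23.0 and 24.6 CPM in WT. At CT8 the groups did not overlap. Gss rose by 0.81 ± 0.18 at CT8 (adjusted p = 0.00158) and by 0.60 ± 0.12 averaged over both times (adjusted p = 6.68e-04), while 0.39 ± 0.17 at CT16 was not called (adjusted p = 0.124). In the GRCm38 annotation Gss shares exon sequence with Acss2 on the other strand, and whether the counting used strand is not stated in the sources used here.

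The first and rate-limiting step is made by Gclc, the catalytic subunit of glutamate-cysteine ligase, and Gclm, its modifier. Gclc spanned 146 to 398 CPM in CryDKO and 168 to 305 CPM in WT, and Gclm 151 to 227 CPM in CryDKO and 137 to 228 CPM in WT. Neither was called in any comparison, with genotype changes at CT8 of 0.29 ± 0.23 (adjusted p = 0.312) and 0.29 ± 0.15 (adjusted p = 0.132).

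Gsr, glutathione reductase, which returns oxidised glutathione to its reduced form, was at 118, 63.8, 63.2 and 62.4 CPM in CryDKO at CT8, against 45.5, 48.1, 51.9 and 49.2 CPM in WT, without overlap. It rose by 0.66 ± 0.19 (adjusted p = 0.00904), and without library 9 by 0.41 ± 0.15 (adjusted p = 0.0401). At CT16 it was at 57.6, 54.0, 58.4 and 49.6 CPM in CryDKO, against 66.7, 68.8, 64.5 and 43.4 CPM in WT, not called (adjusted p = 0.608). The peroxidases that spend glutathione were not called by genotype. Gpx1, the main cytosolic one, spanned 1679 to 2907 CPM in CryDKO and 1355 to 2692 CPM in WT, and Gpx4, which reduces lipid peroxides, 202 to 326 CPM in CryDKO and 173 to 398 CPM in WT.

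The alpha class GSTs were higher in CryDKO where they were called. Gsta2 was at 41.8, 89.3, 27.1 and 20.4 CPM in CryDKO at CT8, against 13.9, 10.8, 9.77 and 10.5 CPM in WT, so the lowest CryDKO library was above the highest WT library. It was 3.97-fold higher in CryDKO (SE 0.55 on the log2 scale, adjusted p = 0.0123). At CT16 it was at 36.4, 24.1, 16.3 and 32.4 CPM in CryDKO, against 8.29, 30.04, 10.8 and 5.65 CPM in WT, with overlap through 1 WT library, at 0.99 ± 0.53 (adjusted p = 0.217). Averaged over both times it rose by 1.49 ± 0.38 (adjusted p = 0.00640).

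Gsta1, whose transcript in the annotation is 97.2% identical to that of Gsta2 over 870 bases, had far fewer reads. It was at 11.8, 4.94, 0.830 and 0.248 CPM in CryDKO at CT8, against 0.808, 0.681, 0.168 and 0.638 CPM in WT. In CryDKO, libraries 9 and 10 lay far above the WT range and libraries 15 and 16 near or within it. The change of 2.94 ± 0.88 (adjusted p = 0.0170) was 1.83 ± 0.75 (adjusted p = 0.0698) without library 9. At CT16 its highest value was 0.588 CPM in CryDKO and 0.882 CPM in WT. How reads were divided between Gsta1 and Gsta2 is uncertain at this identity.

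Gsta4, which conjugates the lipid aldehyde hydroxynonenal, was at 67.8, 89.5, 76.3 and 98.2 CPM in CryDKO at CT16, against 37.1, 54.2, 47.6 and 33.8 CPM in WT, with no overlap. It rose by 0.94 ± 0.30 (adjusted p = 0.0380). At CT8 it was at 117, 168, 45.8 and 62.6 CPM in CryDKO, against 60.9, 52.4, 63.1 and 55.9 CPM in WT, where CryDKO libraries lay on both sides of the WT range, at 0.76 ± 0.30 (adjusted p = 0.0527). The call at CT16 was lost with 10 of the 16 libraries left out in turn, at adjusted p of 0.0524 without WT_CT8 library 2 to 0.118 without WT_CT16 library 8, but that averaged over both times, 0.85 ± 0.21 (adjusted p = 0.00378), held in every setting run. Gsta3, the most abundant alpha GST here, was at 2329 ± 295 CPM in CryDKO and 1664 ± 282 CPM in WT at CT16, and 2171 ± 333 CPM in CryDKO and 1941 ± 248 CPM in WT at CT8 (SD, n = 4 each). It rose by 0.32 ± 0.13 averaged over both times (adjusted p = 0.0452), a call lost with 11 of the 16 libraries left out in turn, at adjusted p of 0.0541 to 0.0913.

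Of the 4 mu class GSTs, Gstm4 and Gstm2 were called lower in CryDKO at CT16, and Gstm1 and Gstm3 were not called. Gstm4 was at 21.9, 24.7, 22.1 and 20.7 CPM in CryDKO at CT16, against 42.4, 55.3, 59.2 and 35.0 CPM in WT. Gstm2 was at 27.9, 34.6, 21.8 and 30.8 CPM in CryDKO, against 52.1, 56.8, 78.5 and 39.7 CPM in WT. In both genes every CryDKO library at CT16 lay below every WT library at CT16. The log2 change was -1.10 ± 0.17 for Gstm4 (adjusted p = 2.29e-04) and -0.98 ± 0.22 for Gstm2 (adjusted p = 0.00474), and both calls held in all 24 settings.

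At CT8 edgeR called 0 of the 4 mu class genes, 0 had an unadjusted p under 0.05, and DESeq2 and voom called 0. Gstm4 was at 49.3, 37.6, 32.6 and 30.8 CPM in CryDKO at CT8, against 41.8, 36.9, 39.4 and 36.6 CPM in WT, a change of -0.04 ± 0.16. Gstm2 was at 47.2, 31.2, 66.9 and 39.8 CPM in CryDKO, against 37.3, 43.0, 46.5 and 43.0 CPM in WT, a change of 0.12 ± 0.21. The difference between the genotype effects at CT16 and at CT8 was -1.06 ± 0.23 for Gstm4 (unadjusted p = 1.78e-04, adjusted p = 0.103) and -1.10 ± 0.30 for Gstm2 (unadjusted p = 0.00168, adjusted p = 0.187), neither of which passed over all genes. Gstm1, the abundant liver form, spanned 652 to 2051 CPM in CryDKO and 1101 to 2256 CPM in WT, and Gstm3 17.1 to 91.4 CPM in CryDKO and 25.2 to 61.5 CPM in WT, with no call. The transcripts of the 4 mu genes were 79.0% to 86.9% identical over their aligned parts, so reads may be divided between them with some error.

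Gstp1, the pi class GST long studied in resistance to platinum drugs, was not called. In CryDKO at CT16 it was at 535, 572, 1579 and 1575 CPM, where libraries 13 and 14 lay above all 8 WT libraries and libraries 11 and 12 did not. In WT at CT16 it was at 656, 899, 1027 and 523 CPM. At CT8 it spanned 378 to 963 CPM in CryDKO and 709 to 962 CPM in WT. Gstp2, 94.2% identical to Gstp1 over 798 bases, had 1.29 to 11.8 CPM in CryDKO, the highest in library 9, and 1.53 to 5.33 CPM in WT.

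Gstt1, a theta class enzyme that acts on small halogenated compounds, was higher in CryDKO at both times. It was at 208, 275, 195 and 255 CPM in CryDKO at CT16, against 137, 127, 171 and 138 CPM in WT, and at 172, 249, 182 and 223 CPM in CryDKO at CT8, against 138, 156, 154 and 139.7 CPM in WT. All 8 CryDKO libraries exceeded all 8 WT libraries. It rose by 0.70 ± 0.16 at CT16 (adjusted p = 0.00482) and by 0.49 ± 0.16 at CT8 (adjusted p = 0.0180), and the call at CT8 was lost without CryDKO_CT8 library 10 (adjusted p = 0.0644). The call at CT8 was also lost with scaling by library size alone.

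Gstz1, the zeta class enzyme of tyrosine breakdown, was lower in CryDKO. It was at 504, 572, 527 and 569 CPM in CryDKO at CT16, against 698, 701, 745 and 851 CPM in WT, and at 542, 541, 659 and 609 CPM in CryDKO at CT8, against 777, 725, 935 and 829.6 CPM in WT. The groups did not overlap at either time. The change was -0.46 ± 0.15 at CT16 (adjusted p = 0.0345) and -0.47 ± 0.15 at CT8 (adjusted p = 0.0163). The call was lost at CT16 with 6 of the 16 libraries left out in turn (CryDKO_CT16 library 11, 12 or 13, WT_CT8 library 4, WT_CT16 library 7 or 8), up to adjusted p = 0.0875, and at CT8 with 4 of them (CryDKO_CT8 library 9 or 10, WT_CT8 library 3 or 4), up to adjusted p = 0.0865. Averaged over both times, -0.47 ± 0.10 (adjusted p = 0.00127) held in every setting run. In the GRCm38 annotation it shares exon sequence with Pomt2 on the other strand.

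Mgst1, a membrane GST and peroxidase, was also lower. Among the GSTs here it had the highest level per kilobase when the exons of all annotated transcripts are joined. It was at 1791, 2427, 2411 and 2368 CPM in CryDKO at CT16, against 2697, 2939.5, 3443 and 3324 CPM in WT, and at 1678, 1596, 2479 and 1986 CPM in CryDKO at CT8, against 3262, 3156, 4025 and 3710.0 CPM in WT. Every CryDKO library lay below every WT library. The change was -0.46 ± 0.19 at CT16, not called (adjusted p = 0.0859), -0.87 ± 0.19 at CT8 (adjusted p = 0.00140) and -0.67 ± 0.13 averaged over both times (adjusted p = 4.41e-04).

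Of the remaining GSTs, Gstt2 spanned 69.3 to 114 CPM in CryDKO and 65.1 to 119 CPM in WT, Gstk1, a kappa class enzyme of mitochondria and peroxisomes, 67.7 to 103 CPM in CryDKO and 79.7 to 129 CPM in WT, Gsto1, an omega class enzyme, 70.1 to 114 CPM in CryDKO and 55.4 to 111 CPM in WT, and Mgst3 11.4 to 41.2 CPM in CryDKO and 14.2 to 31.0 CPM in WT. None of these 4 was called in any of the 6 comparisons. In all, 15 of the 34 tested genes were called in none.

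Between dosing times, no gene of the 34 passed the threshold of edgeR in either genotype. In CryDKO, 0 were called, with 12 at an unadjusted p under 0.05, 1 call by DESeq2 (Gstm4) and 0 by voom. Over all 14484 genes 0% were called there, with 938 at an unadjusted p under 0.05. In WT, 0 were called, with 8 at an unadjusted p under 0.05, 4 calls by DESeq2 (Mt1, Nfe2l2, Keap1 and Aox1) and 3 by voom (Mt1, Keap1 and Aox1), against 2.53% of all genes (367) by edgeR. Over all genes 3830 had an unadjusted p under 0.05 there, and DESeq2 called 1546 and voom 955. For the interaction, 0 were called, with 10 at an unadjusted p under 0.05, 1 call by DESeq2 (Gstm4) and 0 by voom, against 0.0414% of all genes (6) by edgeR. Over all genes 1927 had an unadjusted p under 0.05 there, and DESeq2 called 134 and voom 1.

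In WT, the 4 genes nearest to the threshold were each without overlap between the times. So was Nqo1, at 13.1 to 13.99 CPM at CT16, against 7.64 to 12.2 CPM at CT8. The 4 were picked for a low adjusted p, and the share of all genes without overlap was not counted for this comparison. The lack of overlap is therefore not read as a result particular to them. Keap1 was at 74.0, 63.5, 67.9 and 49.2 CPM at CT16, against 49.2, 44.2, 42.7 and 43.8 CPM at CT8, a change of 0.50 ± 0.13 (adjusted p = 0.0510), though the lowest CT16 library, library 8, was nearly equal to the highest CT8 library. Nfe2l2 was lower at CT16, with 94.3 ± 12.2 CPM, against 141 ± 6.95 CPM at CT8 (SD, n = 4 each), a change of -0.58 ± 0.17 (adjusted p = 0.0581). Aox1 was likewise lower at CT16, with 102 ± 12.5 CPM, against 173 ± 25.4 CPM at CT8, a change of -0.76 ± 0.21 (adjusted p = 0.0512). Mt1 was higher at CT16, with 1027 ± 511 CPM, against 414 ± 182 CPM at CT8, a change of 1.31 ± 0.39 (adjusted p = 0.0656). None of these 4 passed. Without WT_CT16 library 8, 8 genes were called, with Mt1, Gclm, Gss, Gstm2, Gstm4 and Keap1 higher and Nfe2l2 and Aox1 lower at CT16, but 3580 of 14696 genes were then called over the whole table, against 367 with it, so that the share of these genes lay near that of all. Without it the interaction was called for Gsr, Gstm2, Gstm4 and Keap1, and for 568 genes over the whole table, against 6 with it.

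In CryDKO the same 4 genes had smaller changes, -0.14 ± 0.13 for Keap1, -0.20 ± 0.17 for Nfe2l2, -0.30 ± 0.21 for Aox1 and 0.29 ± 0.39 for Mt1, each with overlap between the times. The difference between the genotypes in the time effect was -0.64 ± 0.19 for Keap1 (unadjusted p = 0.00296, adjusted p = 0.216) and 0.38 ± 0.23 for Nfe2l2 (adjusted p = 0.490). The lowest unadjusted p in CryDKO was that of Gstm4, at -0.75 ± 0.17 (unadjusted p = 1.94e-04, adjusted p = 0.402), with every CT16 library below every CT8 library. The largest changes there, of Gsta1 (-3.68 ± 0.96), Cbr3 (-2.12 ± 0.76) and Srxn1 (-1.83 ± 0.69), carried CryDKO_CT8 library 9. Without it they were -2.53, -0.32 and -0.07.

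**Figure D5:**
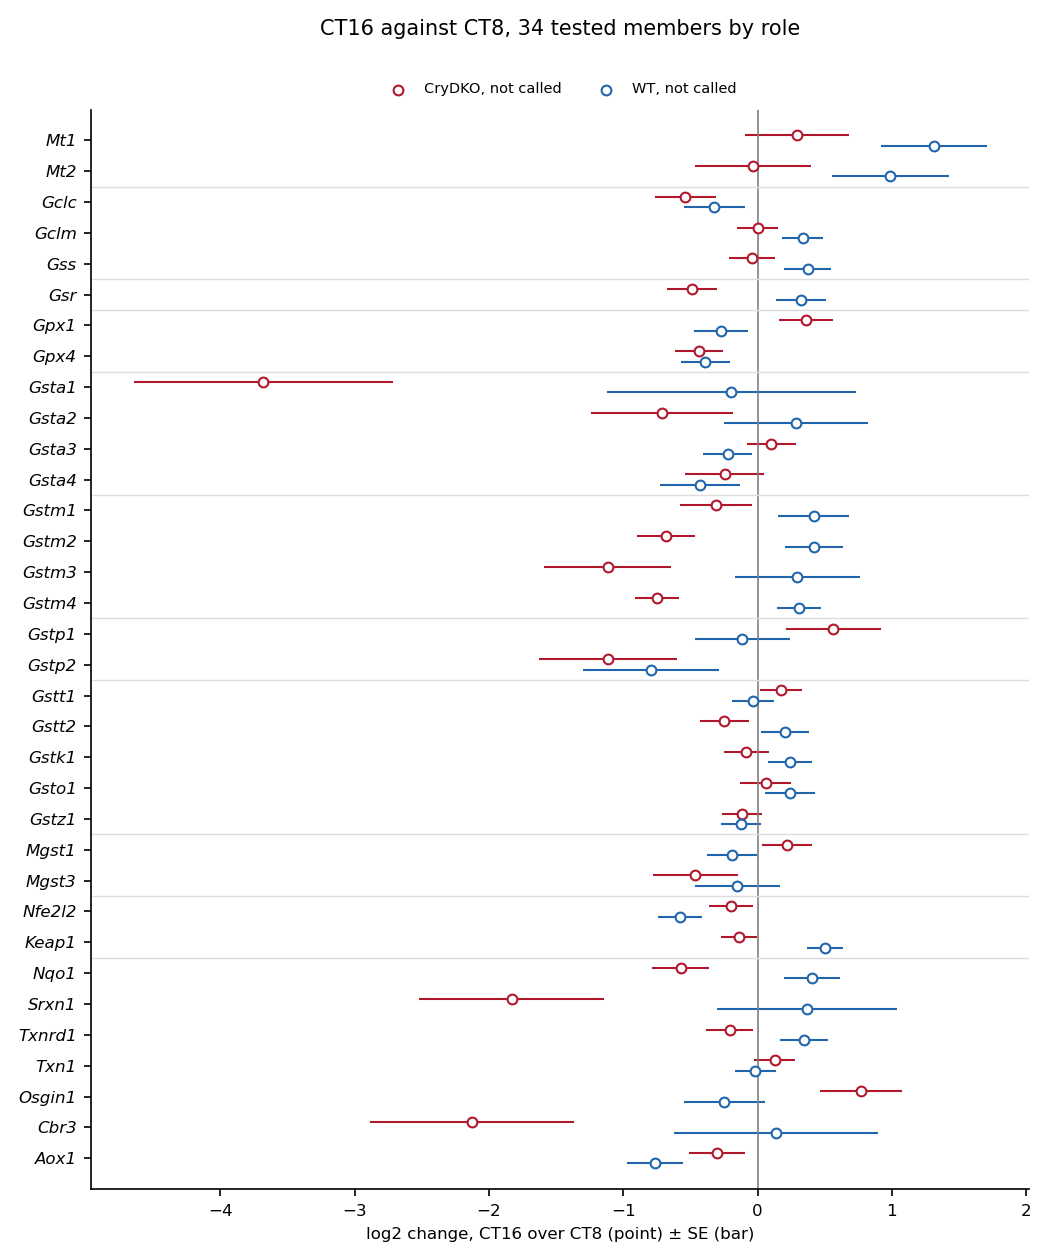
Log2 change of CT16 over CT8 (point) with its standard error (bar) in CryDKO and in WT for the 34 tested genes, ordered by role. No point passed an adjusted p of 0.05. Keap1, Nfe2l2, Aox1 and Mt1 lie farther from 0 in WT than in CryDKO, and Gsta1, Cbr3 and Srxn1 lie far below 0 in CryDKO.

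Per kilobase of annotated exon (GRCm38), averaged over all 16 libraries, Gpx1 had the highest level, at 1421 ± 292 CPM per kilobase (SD, n = 16), followed by Mgst1 at 1344 ± 368, Mt2 at 977 ± 485, Gstm1 at 945 ± 275 and Mt1 at 763 ± 394. Each of these differed from the next by less than the larger of the 2 SDs, and the order differed by genotype. The length used joins the exons of all annotated transcripts of a gene, and the order may depend on that choice. Gsta3, at 466 ± 84.5 CPM per kilobase, had 4344 bases by this measure, while its longest coding transcript had 1457. In CryDKO Gpx1 was first at 1506 ± 267, before Mt2 at 1244 ± 356 and Mgst1 at 1039 ± 184, while in WT Mgst1 was first at 1649 ± 208, before Gpx1 at 1337 ± 309 (SD, n = 8 each). Nfe2l2 stood at 22.6 ± 10.1 and Keap1 at 14.7 ± 3.94 CPM per kilobase, and the lowest tested genes were Gstp2 at 2.80 ± 2.28, Gsta1 at 1.54 ± 3.12 and Cbr3 at 0.926 ± 1.58.

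Other genes of these pathways were counted in 6 further lists, averaged over both times. Over all genes 22.9% were called higher and 24.2% lower in this comparison. Of 22 tested genes of glutathione supply and breakdown, 10 were called higher and 2 lower in CryDKO. Cndp2, a cytosolic dipeptidase that splits cysteinylglycine, rose by 1.21 ± 0.10 (adjusted p = 3.74e-08), at 62.0 to 84.7 CPM in CryDKO, against 25.9 to 40.0 CPM in WT. Chac2, an enzyme that degrades glutathione, was at -1.09 ± 0.12 (adjusted p = 1.69e-06), with 9.37 to 19.4 CPM in CryDKO, against 28.2 to 37.1 CPM in WT. Slc25a40, a mitochondrial carrier related to the glutathione importer Slc25a39, was at -1.20 ± 0.14 (adjusted p = 3.07e-06). In each of these 3 genes the 8 CryDKO libraries did not overlap the 8 WT libraries.

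Of 6 tested genes of metallothioneins and zinc, 3 were called higher, all of them transporters, and the other 3 were not called. Slc39a5, a zinc importer, rose by 1.97 ± 0.23 (adjusted p = 2.60e-06), Slc30a10, a manganese exporter, by 1.66 ± 0.16 (adjusted p = 6.13e-07) and Slc39a4, a zinc importer, by 1.03 ± 0.15 (adjusted p = 4.17e-05). Slc39a5 was at 3.49 to 9.62 CPM in CryDKO, against 0.772 to 2.06 CPM in WT. Mtf1, the metal sensor, was at -0.04 ± 0.11 and not called (adjusted p = 0.753).

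Of 24 other NRF2 targets, 10 were called higher and 5 lower. Ces1g, a carboxylesterase, rose by 1.13 ± 0.15 (adjusted p = 9.28e-06), Akr1b3, aldose reductase, by 1.00 ± 0.14 (adjusted p = 1.77e-05) and Tkt, transketolase, by 0.86 ± 0.13 (adjusted p = 5.22e-05), each with all 8 CryDKO libraries above all 8 WT libraries. The 5 lower ones were Adh7, Me1, Nqo2, Slc6a9 and Ugdh. Of 13 partners and regulators of NRF2, 2 were called higher, Dpp3 at 0.66 ± 0.11 (adjusted p = 8.11e-05) and Maff, and 4 lower, Bach1, Mafg, Nfe2l3 at -1.42 ± 0.40 (adjusted p = 0.00674) and Trim21 at -0.46 ± 0.13 (adjusted p = 0.00774). Dpp3 is a peptidase that binds KEAP1, and Nfe2l3 is a relative of Nfe2l2.

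Of 10 tested GSTs and proteins with a GST-like domain outside the 36, 6 were called higher and 2 lower. Eef1g, a subunit of an elongation factor, was at 0.58 ± 0.10 (adjusted p = 8.19e-05), and the chloride channel proteins Clic1 and Clic4 at 0.66 ± 0.12 (adjusted p = 1.93e-04) and 0.50 ± 0.11 (adjusted p = 8.66e-04). The 2 lower ones were Gstm6 and Gstm7, of the mu class, while Gstm5, of the same class, was among the 6 higher. Of 25 peroxidases, thioredoxins and other antioxidant enzymes, 6 were called higher and 3 lower, among them Gpx3, a secreted peroxidase, at 0.94 ± 0.19 (adjusted p = 4.70e-04), Sesn2, a stress-induced sestrin, at 0.88 ± 0.19 (adjusted p = 0.00126) and Txnip, which binds thioredoxin, at -1.38 ± 0.26 (adjusted p = 6.98e-04). The shares called in the 6 lists, in the order given, were 54.5%, 50%, 62.5%, 46.2%, 80% and 36%. They are to be read beside 47.1% of all genes, and no list was tested as a set.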

How the data were processed

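Liver poly(A) RNA was sequenced as paired-end reads in 16 libraries, 4 in each group of genotype and dosing time. The authors deposited raw counts of reads per gene symbol, and a second table of normalized counts, a signal made by the authors by dividing counts by 1 size factor per library. Per the submitters' processing notes the tools were FastQC, Trimmomatic 0.35, STAR 2.5.3, HTSeq 1.99.2 and DESeq2, on GRCm39 (mm39), with annotation and strand setting not given in the sources used here. Genotype and time in the column names gave the group. The running number in those names, which is not the labels' replicate number, is used here to name libraries. In the normalized table the 4 CryDKO columns at CT8 carry each other's names.

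Counts were tested with edgeR 4.0.16 in R 4.3.3 (filterByExpr, TMM scaling, robust quasi-likelihood fit with 1 coefficient per group over 16 libraries), with 6 contrasts and Benjamini-Hochberg adjustment over 14484 genes. Errors of log2 changes are standard errors derived from the F statistic. CPM values use TMM-scaled library sizes. Alternatives were DESeq2 1.42.0, voom and trend in limma 3.58.1 (log2 of normalized value + 1), other scalings and filters, and each library left out in turn. The procedure was tested on simulated data. Totals of 18083916 to 29934138 reads mean that genes of few reads, such as Cbr3 and Gsta1, are measured imprecisely. Genes with a call are named with values and the others with their range, and up to 3 called genes with the lowest adjusted p are named from each further list, with any more chosen after their values were seen. One marker list is not reported here. The members and lists were chosen with earlier results of these data known. Exon lengths and overlaps come from GRCm38, identities from BLAST 2.17.0, and promoter windows from RefSeq on GRCm38.p6, which is not the build of the counts.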

Additional observations from a re-analysis of the deposited data

Results flagged for a closer look

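In 10 of 136 groups of 4 libraries (genes with at least 10 reads in the highest library), 1 library stood far from the other 3 by Dixon's gap test at 95%, where chance gives about 1 in 20. CryDKO_CT8 library 9 was the high one for Gsr (118 CPM, next 63.8), Nqo1 (24.4 CPM, next 15.7), Srxn1 (389.9 CPM, next 39.9) and Cbr3 (8.54 CPM, next 0.996). CryDKO_CT16 library 11 was high for Gstm3 (35.9 CPM, next 21.0) and low for Mgst1 (1791 CPM, next 2368). CryDKO_CT16 library 12 was high for Cbr3 at 0.973 CPM, which is 22 reads. In WT at CT16, library 6 was high for Mt1 (1785 CPM, next 865), library 8 low for Gsr (43.4 CPM, next 64.5) and library 5 low for Txn1 (172 CPM, next 236).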

How the results depend on the processing

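Across the alternatives the direction of every called change in the 34 genes was kept. The number of genes called at CT8 was 11 to 17 with each library left out in turn, and averaged over both times 12 to 15. At CT16 it was 7, with 11 by DESeq2 and 4 to 8 with each library left out in turn. For CT16 against CT8 in WT it was 0, with 4 by DESeq2, 3 by voom and by the groups of the comparison alone, 2 by library size alone and without the filter, 1 with size factors of DESeq2 and with a mean of at least 50 reads, and 0 to 8 with each library left out in turn. In CryDKO it was 0, with 1 by DESeq2, and 0 in each leave-one-out run. For the interaction it was 0, with 1 by DESeq2, 1 without the filter, and 0 to 4 with each library left out in turn. The counts over all genes moved in the leave-one-out runs as well. They were 4274 to 6112 at CT8, 6129 to 6855 averaged over both times and 1821 to 2742 at CT16. For CT16 against CT8 they were 0 to 3580 in WT and 0 to 3 in CryDKO, and for the interaction 0 to 568.

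Without the filter on low counts the calls of Gstz1 (adjusted p = 0.0771) and Cbr3 (0.0770) at CT8, Gsta4 (0.110) and Gstz1 (0.0914) at CT16, and Mt1 (0.0516), Mt2 (0.0607) and Gsta3 (0.0680) averaged over both times were lost, all adjusted p by edgeR. Gsta1 and Cbr3 at CT8 were also lost by voom (adjusted p = 0.115 and 0.136). The cause was not tested. DESeq2 lost none of the calls it could adjust. Counted once per gene, comparison and alternative, over 34 genes and 6 comparisons, 87 results were no longer called, 74 were newly called and 4648 kept their side of the threshold. Mt2 averaged over both times was lost without CryDKO_CT8 library 9, CryDKO_CT16 library 12 or WT_CT16 library 8, and Gstm2 without 5 libraries. Depth limits Cbr3, Gsta1 and Gstp2 most. No paired analysis was possible because the columns carry running numbers and not the replicate numbers of the labels.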
